A study of Homo sapiens with 12 samples.

Results

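Peaks of H3K27ac (acetylation of lysine 27 on histone H3) were compared between 2 squamous carcinoma cell lines and 1 endometrial carcinoma cell line, using 4 of the 12 samples of the series. HCC95 is a line of squamous cell lung carcinoma and gave 1 library. BICR31 gave 1 library and comes, by the design text, from squamous carcinoma of the head and neck, although the tumor type on its own sample label reads lung adenocarcinoma. Ishikawa is an endometrial carcinoma line and gave 2 libraries, replicates 1 and 2. All 4 were grown untreated in RPMI medium with serum and precipitated with the same antibody, ab4729. Each line is 1 established culture from 1 tumour, the squamous lines come from different organs, and the labels do not say whether the Ishikawa replicates were separate cultures. The spread between those replicates may therefore be technical.

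Overlapping peaks of the 4 lists on chromosomes 1 to 22 were merged wherever they shared at least 1 bp, which gave 56052 merged regions. Regions with a peak in HCC95 and in BICR31 and in no Ishikawa list are called the squamous class and numbered 4995. Regions with a peak in both Ishikawa lists and in neither squamous list are called the Ishikawa class and numbered 4572. A further 11200 regions held a peak in all 4 lists, and the remaining 35285 had some other pattern. The 4 untreated libraries of lung adenocarcinoma lines, 2 of H358 and 2 of H2009, were read at the same regions as a readout that did not enter the choice of either class.

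H3K27ac marks active promoters and enhancers, and stretches of chromatin that carry it in one lineage and not in another often lie near the genes that set cell identity. Squamous epithelium of the airway, mouth and skin is built from basal cells that depend on the transcription factor p63, encoded by TP63, which in these cells is made mainly from an internal promoter as the ΔN form; SOX2 is a partner factor that is often amplified in squamous lung carcinoma. Basal cells are further known by keratins 5 and 14 and by desmosomes and hemidesmosomes. The endometrium derives from the Müllerian duct, whose epithelium is known for the transcription factors PAX8, SOX17 and EMX2, for HOXA genes, and for its response to oestrogen and progesterone through the receptors ESR1 and PGR.

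The sequences printed here are the reference DNA upstream of 5 genes, and 1 microRNA. Each gene's transcription start was counted in a class, meaning that a region of that class lay within 2.5 kb of it. At SERPINB13 and PGR the region did not cover the start. The promoters are the 250 bases before the first start listed for each gene in RefSeq on GRCh38.p14, a later build than the hg19 build of the peaks, and promoter sequences were matched for 28 of 44 squamous and 19 of 30 Müllerian list genes. Capitals mark 3 motifs searched on both strands: TGANTCA (bound by AP-1 factors, which are abundant in squamous cells), CCAAT (or ATTGG on the printed strand) and TATAAA. The first 3 promoters had starts in the squamous class and the last 2 in the Ishikawa class.
SOX2, chr3:181711675-181711924, plus strand: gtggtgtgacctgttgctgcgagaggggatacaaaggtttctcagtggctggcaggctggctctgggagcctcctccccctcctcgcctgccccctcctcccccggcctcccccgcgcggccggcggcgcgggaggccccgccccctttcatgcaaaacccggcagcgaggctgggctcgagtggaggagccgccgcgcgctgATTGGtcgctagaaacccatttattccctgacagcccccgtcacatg
SERPINB13, chr18:63587093-63587342, plus strand: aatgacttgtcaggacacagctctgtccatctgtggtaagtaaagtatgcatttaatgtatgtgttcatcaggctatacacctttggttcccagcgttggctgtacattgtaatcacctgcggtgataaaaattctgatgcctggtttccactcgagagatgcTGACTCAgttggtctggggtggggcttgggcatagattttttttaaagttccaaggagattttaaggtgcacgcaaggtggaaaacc
COL17A1, chr10:104085881-104086130, minus strand: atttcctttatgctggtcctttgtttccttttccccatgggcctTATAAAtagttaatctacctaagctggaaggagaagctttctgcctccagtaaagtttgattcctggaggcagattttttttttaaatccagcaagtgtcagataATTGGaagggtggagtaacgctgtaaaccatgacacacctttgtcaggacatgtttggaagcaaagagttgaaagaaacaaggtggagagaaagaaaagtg
EMX2, chr10:117542496-117542745, plus strand: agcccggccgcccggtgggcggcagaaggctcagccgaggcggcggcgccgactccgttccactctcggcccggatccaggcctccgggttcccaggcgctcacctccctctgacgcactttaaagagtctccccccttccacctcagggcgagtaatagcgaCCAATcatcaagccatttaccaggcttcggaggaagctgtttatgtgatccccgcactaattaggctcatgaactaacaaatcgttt
PGR, chr11:101129078-101129327, minus strand: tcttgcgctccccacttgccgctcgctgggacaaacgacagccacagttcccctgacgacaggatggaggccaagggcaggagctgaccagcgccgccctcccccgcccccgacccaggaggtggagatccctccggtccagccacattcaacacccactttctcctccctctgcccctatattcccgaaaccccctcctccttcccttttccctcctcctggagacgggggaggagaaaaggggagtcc
The microRNA is the mature arm of miR-205, an epithelial microRNA with high expression in basal and squamous cells. Its host gene held 1 region of one of the longest squamous chains. The seed of the microRNA, bases 2 to 8, is in capitals, and the sequence is written in RNA letters.
hsa-miR-205-5p: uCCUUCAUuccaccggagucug
The AP-1 letters stood in 2 of 11 matched promoters with a start in the squamous class and in 0 of 4 in the Ishikawa class, against 6.56% of 26246 promoters of the same length. The CCAAT letters stood in 4 of 11 and 2 of 4, against 32.8% of all promoters, and TATAAA in 2 of 11 and 0 of 4, against 11.2%. These counts are too small to set the classes apart, and a match is not a binding site.

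The lists differed in form as well as in cell line. On chromosomes 1 to 22, HCC95 held 22850 peaks over 21.0 Mb with a median width of 823 bp, and BICR31 held 41161 peaks over 39.8 Mb with a median of 896 bp. Ishikawa replicate 1 held 23623 peaks over 40.4 Mb with a median of 1522 bp, and replicate 2 held 26474 over 31.7 Mb with a median of 963 bp. The squamous lists give a value per peak that was read as fold enrichment from the column order, as they name no columns, and the Ishikawa lists a score. These values can be ordered within a list and not compared between the groups, and the form of the list and the cell line cannot be told apart. No list gives read counts, so the depth is unknown. All intervals below are 95% Wilson intervals over regions, which share their 4 libraries and are not replicates, and they cover counting error in the number of regions alone.

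The squamous class made up 8.91% of the merged regions and the Ishikawa class 8.16%, together 9567 regions found in both lists of one group and in neither list of the other. When HCC95 was instead paired with Ishikawa replicate 1 and BICR31 with replicate 2, 148 and 478 regions, 626 in all, were exclusive to a pair. With the pairing of HCC95 with replicate 2 and BICR31 with replicate 1 they were 131 and 514, or 645. These counts use the same presence of peaks that defines the classes, and each of the other pairings separates the replicates of Ishikawa, so they are a description and no test of cell type. The Ishikawa class required peaks in 2 libraries of 1 line, and the squamous class in 2 lines of different organs.

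**Figure D1:**
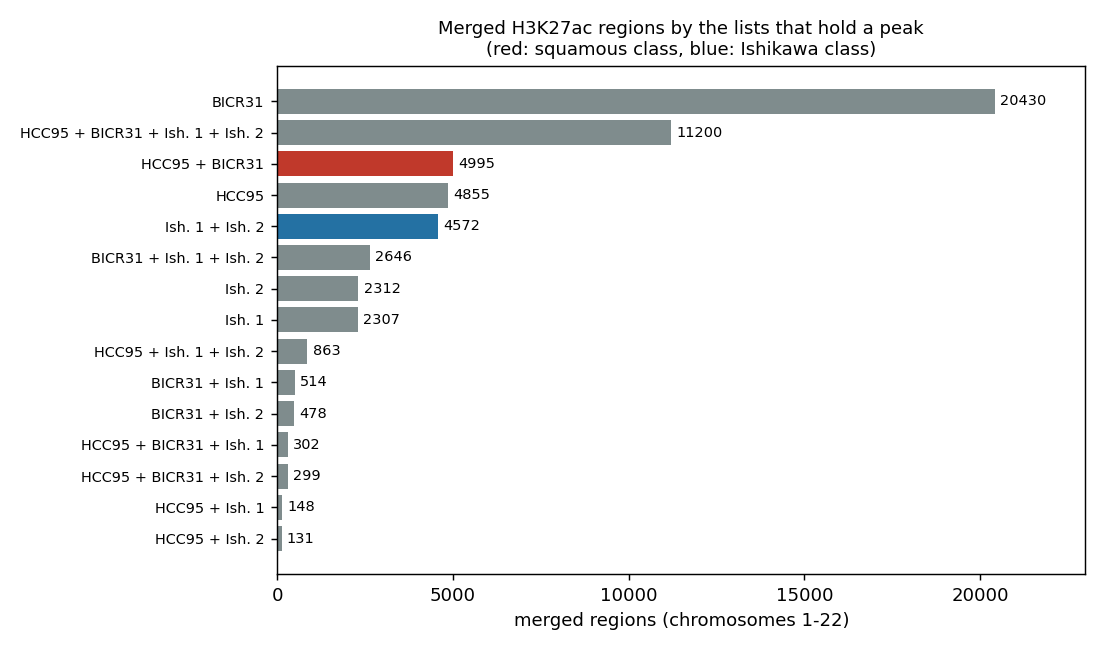
Number of merged regions on chromosomes 1 to 22 (horizontal axis) by the lists that hold a peak (1 bar for each pattern, "Ish." for Ishikawa replicate). BICR31 alone held 20430 regions, the highest bar, all 4 lists held 11200, and the squamous class (4995, red) and Ishikawa class (4572, blue) stand far above the pairs made of 1 squamous and 1 Ishikawa library, which held 131 to 514.

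The squamous lines differed in how much of the genome was called. BICR31 alone held 20430 regions and HCC95 alone 4855, while each Ishikawa replicate alone held 2307 and 2312. BICR31 shared 2646 regions with both Ishikawa lists and not with HCC95, and HCC95 shared 863 with both Ishikawa lists and not with BICR31. When HCC95 was left out, so that a squamous region needed a peak in BICR31 only, the squamous class rose to 25494 regions against 5526 of the Ishikawa class. When BICR31 was left out, the numbers were 9917 and 7448. Which class was larger was not a stable result: the squamous class was the larger in 5 of 12 settings, and with lists cut to equal length it held 2872 regions against 4786.

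Squamous-class regions were narrower than Ishikawa-class regions. Their median width was 1216 bp (quartiles 836 and 1680) and the widest spanned 5049 bp. The median of the Ishikawa class was 1452 bp (quartiles 945 and 2226), and its widest region spanned 8153 bp. Regions with a peak in all 4 lists had a median of 2126 bp and were wider than both classes. A merged region spans the peaks of every list in it, so more lists tend to make it wider. Within single lists, the median called bases in the own class and in these common regions were 736 and 969 in HCC95 and 933 and 1282 in BICR31. They were 1380 and 1994.5 in Ishikawa replicate 1 and 870 and 1636 in replicate 2. In total the squamous class covered 6.58 Mb and the Ishikawa class 8.15 Mb. The difference in width between the squamous and Ishikawa classes moved with the widths of the peaks in the lists themselves. When every peak was set to 1000 bp the medians were 1214 and 1175 bp, in the opposite order. The order was also opposite without Ishikawa replicate 1, at 1214 and 652 bp, and without replicate 2, at 1219 and 1050 bp.

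Within each list, the peaks of its own class were weaker than its peaks in regions common to all 4 lists. In HCC95 the median fold enrichment was 3.57 in the squamous class and 4.13 in the common regions. In BICR31 these were 3.81 and 4.46. In Ishikawa replicate 1 the median score was 97.6 in the Ishikawa class and 273 in the common regions, and in replicate 2 it was 101.3 and 302. Peaks found in a single list were weaker still, with medians of 3.45, 3.60, 61.3 and 63.4 in the same order of libraries. Across the 4995 squamous regions, the fold enrichment in HCC95 and in BICR31 had a Spearman correlation of 0.43, and across the 4572 Ishikawa regions the scores of the replicates had one of 0.65. Both are descriptions over regions that share the same libraries, and the former compares 2 lines whereas the latter compares replicates of 1.

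Squamous-class regions were more often marked in lung adenocarcinoma than Ishikawa-class regions. Of the squamous class, 50.5% (49.1 to 51.8) overlapped a peak in at least 1 of the 4 lung adenocarcinoma libraries, against 23.6% (22.3 to 24.8) of the Ishikawa class. The share was 96.0% in regions common to all 4 lists and 27.8% in the remaining patterns. A peak in every one of the lung libraries was found in 9.45% of squamous and 4.37% of Ishikawa regions. Both lung lines contributed: 17.3% of squamous regions had a peak in both H358 libraries and 22.5% in both H2009 libraries, and the corresponding Ishikawa shares were 8.92% and 7.72%. The remaining 2475 squamous regions and 3495 Ishikawa regions had no lung peak. The lung lists have narrow peaks with medians of 348 to 383 bp, and they share the deposited form of the squamous lists (fold enrichment, −log10 p and q), so that the higher overlap of the squamous class and the form of the lists cannot be told apart. The difference was lost when either squamous line was left out, with 30.5% against 30.6% without HCC95 and 30.2% against 41.7% without BICR31. It shrank to 55.3% against 53.9% where a list counted as present only if its peaks covered 50% of a region, and to 72.2% against 70.4% in the higher-ranked 50% of each list.

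**Figure D2:**
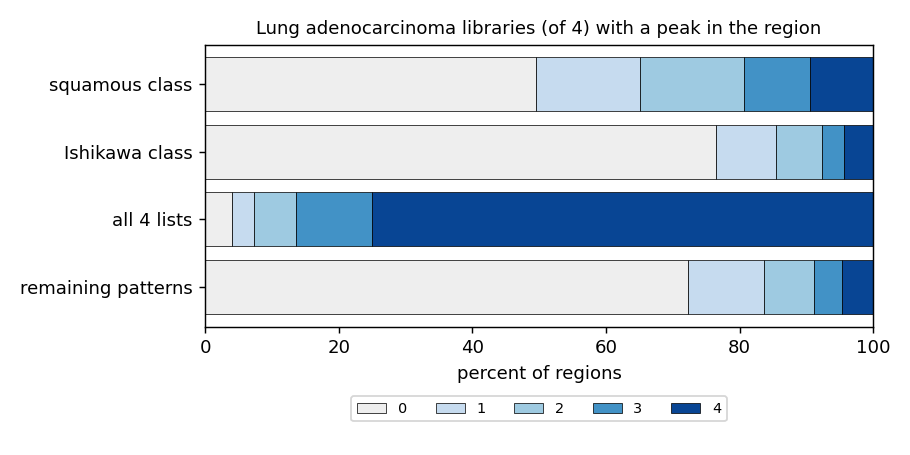
Percent of regions (horizontal axis) with a peak in 0, 1, 2, 3 or 4 of the lung adenocarcinoma libraries (shades), for the squamous class, the Ishikawa class, regions in all 4 lists and the remaining patterns. The palest part, regions with no lung peak, takes 49.5% of the squamous class and 76.4% of the Ishikawa class, and in the common regions the darkest part takes 75.1%.

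A minority of either class lay in chains of neighbouring regions. Regions of 1 class were joined into a chain where gaps were no longer than slightly over 12 kb and no region of the other class lay between. Chains took in 525 squamous regions, 10.51% (9.69 to 11.4), in 245 chains, of which 27 had 3 or more members and the longest had 6. They took in 618 Ishikawa regions, 13.5% (12.6 to 14.5), in 293 chains, of which 26 had 3 or more and the longest had 5. Joined in the same way without regard to class, 56.2% of all merged regions lay in chains, but that set is far more numerous than either class and its share is no measure of their density. The median distance to the nearest region common to all 4 lists was 71.4 kb for squamous and 79.7 kb for Ishikawa regions, and 8.51% and 10.9% lay within 10 kb of one. Without HCC95 the shares in chains were 35.7% and 14.7%, in the opposite order. With peaks merged across gaps of up to 500 bp they were 11.02% and 10.89%, and the order held in the other 12 of 14 settings.

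The longest squamous chain lay directly downstream of TP63. Its 6 regions spanned 46.3 kb, chr3:189616715-189663058, between the end of TP63 and P3H2, which encodes a collagen prolyl hydroxylase. In HCC95 the called bases of the 6 regions were 2975, 2844, 292, 2188, 1298 and 1840, with fold enrichments from 1.70 to 2.94. In BICR31 they were 2333, 2320, 1446, 1543, 2403 and 1908, with fold enrichments from 2.15 to 3.12. The class rule requires a peak of both lines in every region of a chain. Enrichments here were below the list medians of 3.80 in HCC95 and 3.81 in BICR31. No lung adenocarcinoma peak was found in 3 of the 6 regions. An Ishikawa-class region followed immediately, at chr3:189664499-189667053.

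There were 4 other squamous chains among the 5 longest. A chain of 5 regions lay inside ABTB2 at chr11:34255403-34297674, and the gene held 8 squamous and 0 Ishikawa regions among 15. A chain of 4, chr1:209571185-209604998, reached MIR205HG, the host transcript of miR-205. The gene held 1 of the 4 regions, and 3 of the 4 were free of lung peaks. Fold enrichments in that chain ran from 1.84 to 2.27 in HCC95 and from 2.33 to 3.60 in BICR31. A chain of 4 covered the beginning of PKP1, a desmosomal plaque protein, at chr1:201228135-201253862. The last chain of 4, at chr1:161417221-161442411, had peaks in all 4 lung libraries at each of its regions, so its acetylation was called in the 4 squamous and lung adenocarcinoma lines and in no Ishikawa list.

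Of the 5 longest Ishikawa chains, 3 lay inside a gene. A chain of 5 lay inside PTPRJ, a receptor tyrosine phosphatase, at chr11:48075048-48111321, in a gene with 7 Ishikawa and 0 squamous regions among 14. Chains of 4 lay inside RBMS3, which encodes an RNA-binding protein, at chr3:29471703-29511412, and inside ADAMTS18, a secreted metalloprotease, at chr16:77406667-77445112. RBMS3 held 9 Ishikawa regions of 18 and ADAMTS18 held 6 of 7, and neither held a squamous one. ADAMTS18 had 0 peaks in HCC95 and 0 in BICR31, against 7 and 6 in the Ishikawa replicates. Another chain of 4, chr3:166829780-166869541, had no lung peak in any member. The last, chr17:39190305-39212149, lay beside the keratin-associated protein gene KRTAP1-5, less than 1 Mb from the squamous regions around KRT17.

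Some parts of the genome were dense in 1 class. The 1 Mb of chromosome 11 from 35000001 held 18 squamous and 0 Ishikawa regions among 60, and 3 of the squamous regions lay in CD44, a hyaluronan receptor of epithelial and basal cells with 6 and 5 peaks in HCC95 and BICR31 and 1 in each Ishikawa replicate. The adjoining 1 Mb held 18 squamous and 5 Ishikawa regions among 59. The keratin cluster on chromosome 17, from 39000001 to 40000000, held 16 squamous and 5 Ishikawa regions among 69. On the Ishikawa side, the 1 Mb of chromosome 4 from 149000001 held 12 Ishikawa and 0 squamous regions among 16, of which 4 lay in NR3C2, the mineralocorticoid receptor gene. In AFF3, a nuclear factor gene on chromosome 2, the replicates had 12 and 13 peaks against 1 each in HCC95 and BICR31, and 7 of 16 regions were of the Ishikawa class. By chromosome, the ratio of squamous to Ishikawa regions was highest on chromosome 20, with 11.5% and 5.07% of 1579 regions, and lowest on chromosome 19, with 5.16% and 8.90% of 2112. Copy number was not measured, and its part in these densities was not tested.

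Regions near genes of squamous epithelium leaned to the squamous class. Within 100 kb of the 44 genes of a squamous list lay 453 merged regions, of which 91 or 20.1% (16.7 to 24.0) were of the squamous class and 19 or 4.19% (2.70 to 6.46) of the Ishikawa class, against 8.91% and 8.16% of all merged regions. At least 1 squamous region lay near 38 of the 44 genes, where 31.1% of all 200 kb tiles with a merged region held one. More squamous than Ishikawa regions lay near 34 genes and the reverse near 3, beside 24.6% and 22.3% of tiles. Gene windows are wider than a tile and mostly hold more merged regions, so by number alone a gene is likelier than a tile to have either class nearby. The tile shares are therefore a low reference for counts of genes, and the percentages of regions are the closer comparison. Some genes are neighbours and share regions, so each region was counted once in the list's percentages. At the transcription start, within 2.5 kb, 15 genes had a squamous-class region, 0 an Ishikawa-class region, 17 a region common to all 4 lists, 9 some other pattern and 3 no peak. The share of all gene starts in each class was not analysed here, so these counts and those of the Müllerian list stand without a background.

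Near the 30 genes of a Müllerian list the leaning was towards Ishikawa. Of 214 regions, 47 or 21.96% (16.9 to 27.98) were of the Ishikawa class and 18 or 8.41% (5.39 to 12.9) of the squamous class. An Ishikawa-class region lay near 19 of the 30 genes, where 28.6% of tiles held one. More Ishikawa than squamous regions lay near 14 genes and the reverse near 5, beside 22.3% and 24.6% of tiles. Here too most gene windows hold more merged regions than a tile, so the tile shares are a low reference. At transcription starts 5 genes had an Ishikawa-class region and 3 a squamous-class region. KLHL14 and MPPED2 had been put on this list because earlier work on these files had shown their Ishikawa peaks, so they are no independent evidence of its direction. Without them the Ishikawa share was 17.4% (12.8 to 23.4) of 195 regions. When HCC95 was left out, so that a squamous region needed a peak in BICR31 alone, the shares near the list were 24.4% Ishikawa and 43.1% squamous, beside 10.7% and 49.6% of all merged regions in that setting.

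The squamous leaning depended on how peaks were ranked. When each list was cut to the length of the shortest by fold enrichment or score, 7.46% of regions near squamous genes were of the squamous class and 7.76% of the Ishikawa class, beside 6.75% and 11.24% of all regions in that setting. The squamous share near the list was then 1.11 times the overall share, where it had been 2.25 times with the whole lists, and the Ishikawa share 0.69 times. In the higher-ranked 50% of each list the shares were 4.79% and 15.6%, beside 6.41% and 7.59% of all regions, so the leaning was opposite. In that last setting 2 of the starts had a squamous-class region and 8 an Ishikawa-class region. In the equal-length lists with HCC95 and BICR31 ranked by −log10 q instead, the shares were 16.1% and 5.57%, beside 7.53% and 11.57% of all regions, and with every list ranked by peak width they were 19.9% and 5.80%, beside 7.03% and 11.45%. Fold enrichment had a Spearman correlation with peak width of −0.13 across HCC95 peaks and 0.01 across BICR31 peaks, whereas the Ishikawa scores had 0.61 and 0.71 with width. Near the Müllerian list, the equal-length lists by fold enrichment or score gave 24.1% Ishikawa and 6.17% squamous, 2.14 and 0.915 times the overall shares. The higher-ranked 50% of each list gave 12% and 9%, or 1.58 and 1.40 times the overall shares, so little leaning was left there. The squamous share exceeded the Ishikawa share near the squamous list in 12 of 14 settings, and the Ishikawa share exceeded the squamous share near the Müllerian list in 13 of 14. Both counts include the main setting and compare raw shares, whose order also depends on the shares among all regions. Without HCC95, for example, 49.6% of all regions were squamous and 10.7% Ishikawa. The counts are therefore no measure of leaning against that background.

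**Figure D3:**
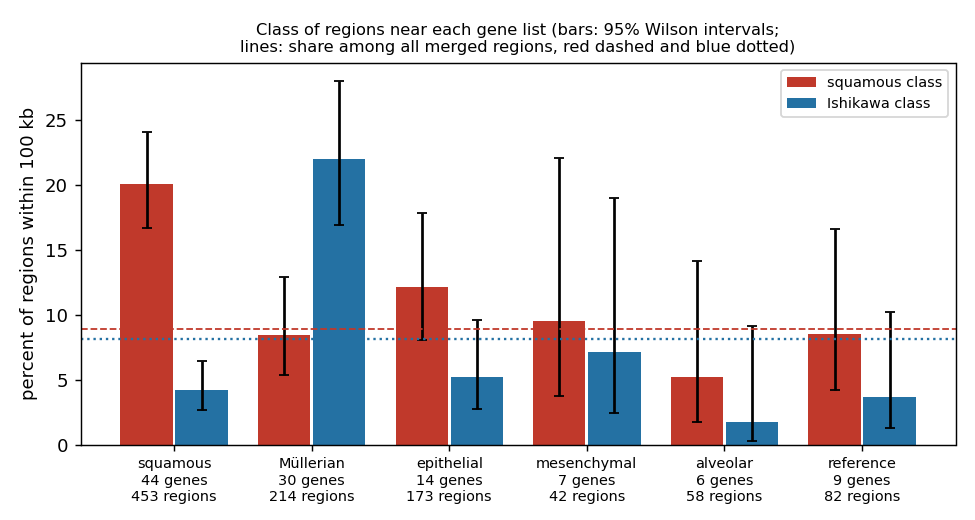
Percent of merged regions within 100 kb of 6 gene lists (vertical axis, starting at 0) that belong to the squamous class (red) or the Ishikawa class (blue), with 95% Wilson intervals; the dashed and dotted lines are the shares among all merged regions, 8.91% and 8.16%. The squamous list stands at 20.1% against 4.19%, and the Müllerian list at 8.41% against 21.96%.

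The other lists stood near the overall shares or had wide intervals. Near 14 genes of epithelium in general, 12.1% (8.08 to 17.8) of 173 regions were of the squamous class and 5.20% (2.76 to 9.59) of the Ishikawa class, and 10 of the 14 starts were marked in all 4 lists. Near 7 mesenchymal genes the shares were 9.52% and 7.14% of 42 regions. Near 6 genes of lung alveolar cells they were 5.17% and 1.72% of 58. Near 9 reference genes active in most cells they were 8.54% and 3.66% of 82, and all 9 starts were marked in all 4 lists. Of the 6 alveolar genes, the starts of the surfactant genes SFTPB and SFTPC and of the protease gene NAPSA had no peak in any of the 4 lists, and the start of NKX2-1, the lung and thyroid lineage factor, had one in BICR31 alone. The start of FOXA1, a factor of several epithelia, was marked in all 4 lists, and that of SLC34A2, a phosphate transporter gene, in Ishikawa replicate 2 alone.

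TP63 carried both classes. Within 100 kb of it lay 32 regions, of which 10 were squamous and 6 Ishikawa, and HCC95 had 20 peaks there, BICR31 15, and the Ishikawa replicates 9 and 11. The called bases were 25428 in HCC95, 24250 in BICR31, 15672 in Ishikawa replicate 1 and 11068 in replicate 2. These values draw on the same peaks that define the classes. How many other windows order the libraries in this way was not counted. The start of the full-length gene had no peak in any list. The start of the ΔN form, inside the gene, had a squamous-class region within 2.5 kb, chr3:189507983-189510578. That region held 1932 called bases at 2.70-fold in HCC95 and 2596 at 2.64-fold in BICR31, and no lung adenocarcinoma peak. Of the 6 Ishikawa regions, 4 lay inside the gene. The strongest of these was chr3:189489308-189492551, with scores of 171 and 277, on the upstream side of the ΔN start and without a lung peak. In the equal-length lists ranked by fold enrichment or score the window held 0 squamous and 3 Ishikawa regions, and with the squamous lists ranked by −log10 q it held 6 and 3.

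Of the 3 lines compared, the 2 squamous lines had peaks near SOX2. HCC95 had 5 peaks and 4782 called bases within 100 kb, BICR31 had 5 peaks and 4065, and both Ishikawa replicates had 0. Of the 6 regions, 4 were of the squamous class. One of these covered the start, chr3:181428697-181431107, with 2214 called bases at 2.30-fold in HCC95 and 1196 at 2.86-fold in BICR31. It overlapped a peak in 3 of the 4 lung libraries, so acetylation at the SOX2 start was not particular to squamous lines in this series.

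Of the 11 squamous transcription factor genes, 10 had a squamous-class region nearby, beside 31.1% of 200 kb tiles. More squamous than Ishikawa regions lay near 9 and the reverse near none, beside 24.6% and 22.3% of tiles. The gene windows are wider than a tile and mostly hold more merged regions, so the tile shares are a low reference. Together, 29 of the 143 regions near these genes (20.3%) were squamous and 10 (6.99%) Ishikawa, against 8.91% and 8.16% of all merged regions. Those Ishikawa regions lay near 4 of the genes, and 6 of them near TP63.

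**Figure D4:**
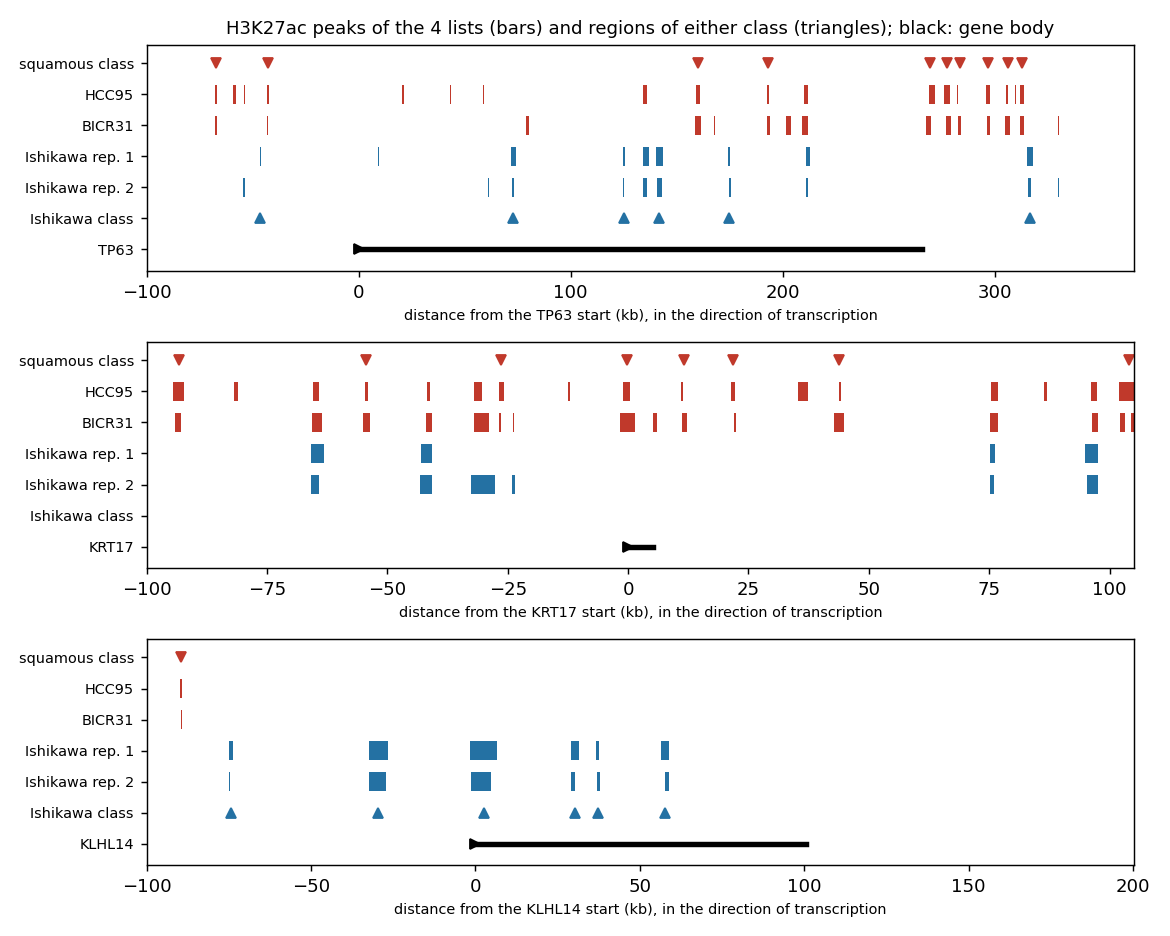
Peaks of the 4 lists (bars, 1 row for each library) around TP63, KRT17 and KLHL14, by distance from the gene start in kb; triangles mark regions of the squamous class (top) and of the Ishikawa class (bottom), and the black line is the gene. Around TP63, 10 squamous and 6 Ishikawa triangles interleave with the chain of 6 to the right of the gene; around KRT17 there are 8 squamous and 0 Ishikawa triangles, and around KLHL14 there are 1 and 6.

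The keratin genes had the highest squamous share of any group in the list. Of 41 regions near 8 keratin genes, 14 or 34.1% (21.6 to 49.5) were squamous and 1 or 2.44% (0.432 to 12.6) Ishikawa. All 8 genes had more squamous than Ishikawa regions, as had 24.6% of 200 kb tiles, which mostly hold fewer merged regions than these windows. The genes form 2 clusters, so neighbours share most of their regions. On chromosome 17, KRT17 (a keratin of stressed and basal epithelium) had 8 squamous and 0 Ishikawa regions of 19, and KRT14 and KRT16 had 7 and 0 of 18. At KRT14 the direction turned to 0 squamous and 2 Ishikawa regions where lists had to cover 50% of a region, and also in the higher-ranked 50% of each list. Within 100 kb of KRT17, HCC95 had 17 peaks and BICR31 16, against 4 and 6 in Ishikawa. The called bases were 21406 and 21968 in the squamous libraries and 8707 and 12806 in the Ishikawa replicates.

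The keratin starts differed between the squamous lines. The KRT17 start lay in a squamous-class region, chr17:39779379-39782557, with 1419 called bases at 2.54-fold in HCC95 and 3179 at 2.72-fold in BICR31. The KRT14 start had a peak in HCC95 alone, chr17:39743448-39745485, at 2.55-fold, and none in BICR31. On chromosome 12, KRT6A, a keratin of activated epithelium, had 5 squamous and 0 Ishikawa regions of 14, and its start lay in chr12:52886275-52887772, at 2.67-fold in HCC95 and 2.84-fold in BICR31. KRT5, the partner of keratin 14 in basal cells, also had 5 and 0, of 13 regions. Its start, however, had a peak in both squamous lists and in Ishikawa replicate 1, with 292, 3149 and 1227 called bases, and so fell outside the squamous class. None of the squamous-class regions near KRT5 had a lung adenocarcinoma peak.

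Junction and adhesion genes were more mixed. Of 80 regions near 9 desmosome and gap junction genes, 14 or 17.5% (10.7 to 27.3) were squamous and 2 or 2.5% (0.688 to 8.66) Ishikawa. The shares of all merged regions were 8.91% and 8.16%. PKP1 had 7 squamous and 0 Ishikawa regions of 17, with 14 peaks in HCC95, 12 in BICR31 and 1 in each Ishikawa replicate. Called bases near PKP1 were 20290 and 13982 in the squamous libraries and 2291 and 1849 in Ishikawa. Its start lay in chr1:201252041-201253862, at 3.17-fold in HCC95 and 3.53-fold in BICR31. PKP3, a related plaque protein gene, had 0 squamous and 2 Ishikawa regions of 18, and its start was marked in all 4 lists.

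Of 96 regions near 7 basement membrane and adhesion genes, 12 were squamous and 6 Ishikawa, and 5 of the 7 starts were marked in all 4 lists. ITGA6, a hemidesmosomal integrin, had 1 squamous and 2 Ishikawa regions. At COL17A1, a hemidesmosomal collagen whose promoter is printed above, the start lay in the squamous-class region chr10:105844925-105846638, at 3.20-fold in HCC95 and 3.71-fold in BICR31. LAMA3 was marked in all 4 lists at its upstream start and in the squamous class at its internal start.

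Among 9 further squamous genes, 22 of 94 regions (23.4%) were squamous and 0 Ishikawa, and 19 of the 22 had no lung peak. EGFR, the epidermal growth factor receptor gene, had 7 squamous and 0 Ishikawa regions of 21, with 11 and 18 peaks in HCC95 and BICR31 and 6 in each Ishikawa replicate. The EGFR start itself was marked in all 4 lists, so the difference lay in the surrounding regions, 5 of which were inside the gene. TRIM29, a basal epithelial gene, had 5 squamous and 0 Ishikawa regions of 7. HCC95 had 6 peaks there, BICR31 7, and the Ishikawa replicates 1 each, and the TRIM29 start lay in chr11:120007749-120009527, at 3.54-fold and 2.87-fold. SERPINB13, an epithelial protease inhibitor whose promoter is printed above with its AP-1 letters, had 3 peaks in each squamous list and 0 in Ishikawa. A squamous-class region, chr18:61251788-61254003, lay within 2.5 kb upstream of its start and did not cover the start. Over the whole squamous list, 59 of the 91 squamous regions (64.8%) had no lung peak, beside 49.5% of all squamous-class regions.

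**Figure D5:**
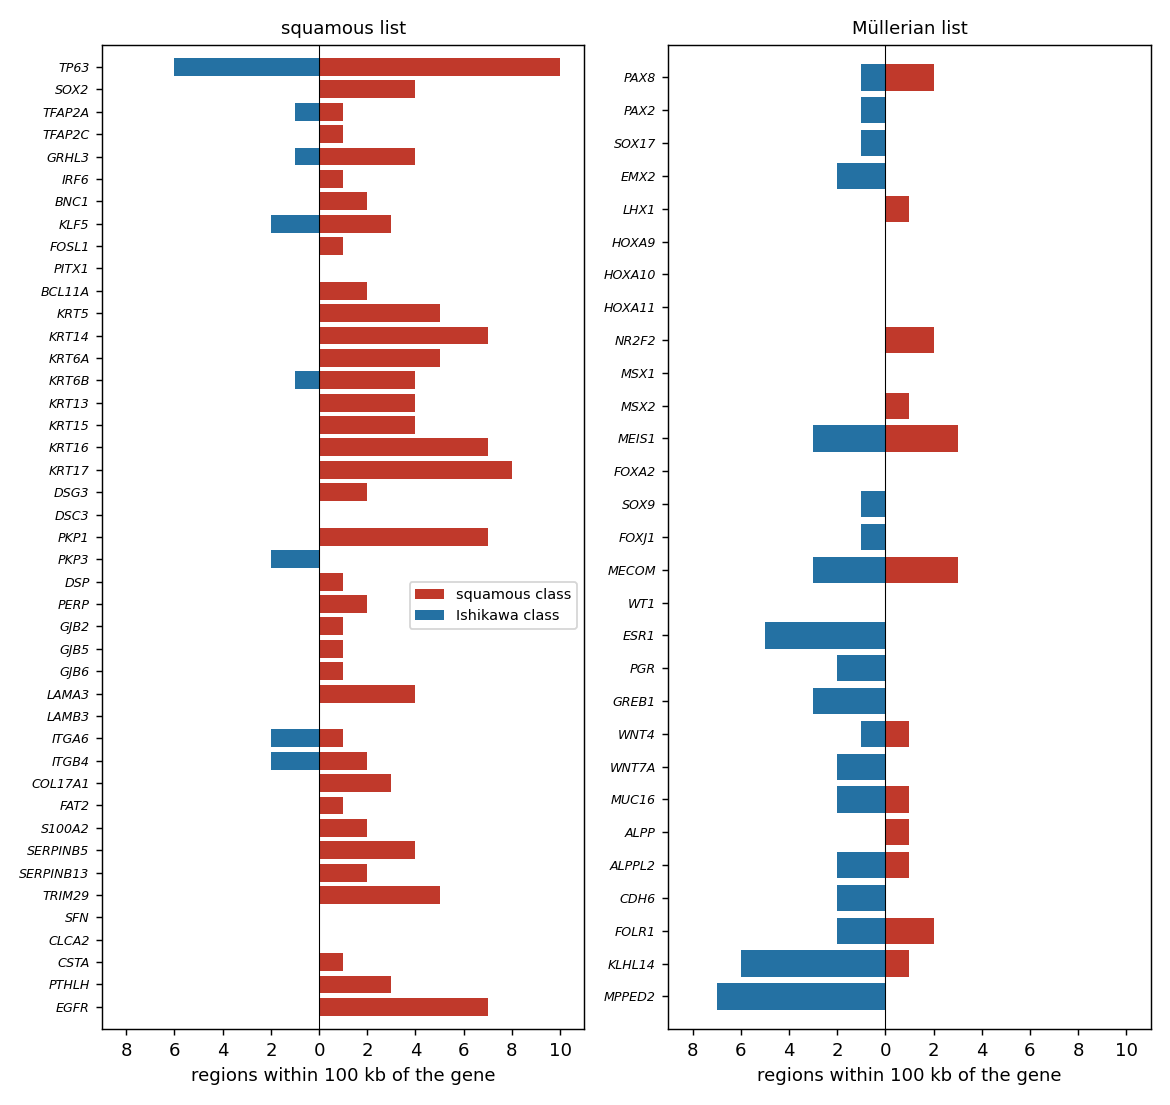
Number of squamous-class regions (red, to the right) and Ishikawa-class regions (blue, to the left) within 100 kb of genes of the squamous list (left panel, 43 of 44 genes) and the Müllerian list (right panel, 29 of 30 genes). Red bars prevail on the left, from 10 at TP63, with 2 of the genes drawn leaning to blue; blue bars prevail on the right, up to 7 at MPPED2, with 5 genes leaning to red and 6 of those drawn with neither class.

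The defining Müllerian factors had few Ishikawa-class regions. The neighbouring genes HOXA9, HOXA10 and HOXA11 each had 0 regions of either class and 8 common to all 4 lists. The HOXA10 and HOXA11 starts were marked in all 4 lists, and the HOXA9 start had no peak. PAX8, the factor used to recognise Müllerian epithelium, had 2 squamous and 1 Ishikawa region of 12, and where lists had to cover 50% of a region it had 0 and 3. Its start had a peak in Ishikawa replicate 2 alone, chr2:114032637-114037732, with a score of 238 over 5096 bp, and none in replicate 1. Called bases near PAX8 were 3713 in HCC95, 11979 in BICR31, and 17978 and 15213 in the Ishikawa replicates. SOX17 had 1 Ishikawa and 0 squamous regions of 3, and its start had a peak in replicate 1 alone; called bases there were 0 in HCC95, 399 in BICR31, and 11155 and 5245 in Ishikawa. The class counts at PAX8 thus did not set Ishikawa apart. Its 1 Ishikawa-class region, 903 bp wide, lay outside the gene, 140 kb from the start, and had a peak in 1 lung library. At SOX17 the peak lists gave the Ishikawa label partial marker evidence.

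EMX2, a homeobox gene of the urogenital tract, was the transcription factor gene with an Ishikawa-class region at its start. The region, chr10:119301225-119308221, held 6947 called bases with a score of 127 in replicate 1 and 6015 with a score of 108 in replicate 2, and it had no lung peak. Near EMX2, HCC95 had 0 peaks and BICR31 had 3 small ones, 1843 called bases in all, against 12369 and 7043 in Ishikawa. MEIS1 and MECOM, which encode factors with roles in several lineages, each had 3 squamous and 3 Ishikawa regions, and both starts were of the squamous class, at chr2:66661011-66662593 and chr3:169379261-169381346. NR2F2, an orphan nuclear receptor gene, had 2 squamous and 0 Ishikawa regions and a squamous-class start. LHX1 and MSX2 among the factors and ALPP among the surface genes each had 1 squamous and 0 Ishikawa regions. Over the 18 Müllerian transcription factor genes, 12 of 114 regions (10.53%) were squamous and 13 (11.4%) Ishikawa. These are close to the 8.91% and 8.16% of all merged regions, so this group alone showed no leaning.

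The hormone receptor genes leaned to Ishikawa. Of 26 regions near ESR1, PGR and GREB1, 10 or 38.5% (22.4 to 57.5) were Ishikawa and 0 squamous, against 8.16% and 8.91% of all merged regions. With 26 regions, 0 leaves a squamous share of up to 12.9% by the same interval. The Ishikawa regions near ESR1 made up 5 of the 10. ESR1, the oestrogen receptor gene, had 5 Ishikawa regions of 16, all inside the gene and without lung peaks, the widest at chr6:152007678-152012947 with scores of 124 and 184. HCC95 had 0 peaks near ESR1, BICR31 had 8 and the Ishikawa replicates 7 and 10, with 18928 and 20457 called bases in Ishikawa against 8129 in BICR31. The upstream ESR1 start had no peak and an internal start had one in BICR31 alone, so BICR31 was not unmarked at this gene. Without HCC95, ESR1 had 6 squamous and 5 Ishikawa regions, and in the higher-ranked 50% of each list ESR1 and PGR had 0 of either class.

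PGR, the progesterone receptor gene, had 2 Ishikawa regions of 4. One of them, chr11:100997600-101000508, with scores of 141 and 89.1, lay within 2.5 kb of the start without covering it. HCC95 had 0 peaks near PGR and BICR31 had 1 of 215 bp. GREB1, a target of the oestrogen receptor, had 3 Ishikawa regions of 6, while its start had a peak in BICR31 alone. The WNT ligand gene WNT4 had an Ishikawa-class start at chr1:22469744-22470494, with scores of 111.2 and 140, and 1 region of each class in its window. WNT7A had 2 Ishikawa and 0 squamous regions and a start marked in all 4 lists. MUC16, which encodes the CA-125 antigen, had 2 Ishikawa regions and 1 squamous region. CDH6, a cadherin gene of kidney and Müllerian epithelium, had an Ishikawa-class start at chr5:31193646-31195342, with scores of 65.9 and 126.

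KLHL14 and MPPED2 had the most Ishikawa regions of the Müllerian list. Near KLHL14, 6 of 7 regions were Ishikawa and 1 squamous, with 6 and 7 peaks in the replicates and 1 each in HCC95 and BICR31. Called bases were 20841 and 14821 in Ishikawa, against 634 in HCC95 and 569 in BICR31. The KLHL14 start lay in the widest region of the Ishikawa class, chr18:30346413-30354565, of 8153 bp, with scores of 58.9 in replicate 1 and 232 in replicate 2. Near MPPED2, a phosphodiesterase gene, 7 of 12 regions were Ishikawa and 0 squamous, and called bases were 26914 and 20001 in Ishikawa, 3304 in HCC95 and 823 in BICR31. The MPPED2 start was shared by HCC95 and both Ishikawa replicates. The second widest Ishikawa region, chr11:30441080-30449161, lay inside the gene.

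Further wide regions lay in or between genes outside the lists. The widest squamous region was chr11:65185972-65191020, 5049 bp in NEAT1, a nuclear long non-coding RNA, called over all 5049 bp in BICR31 at 1.99-fold and over 1517 bp in HCC95 at 2.45-fold. Others among the 5 widest were chr3:193587282-193591792 between OPA1 and HES1, chr11:118780389-118784747 in BCL9L and chr20:45985223-45989546 in ZMYND8. All 5 overlapped a peak in 2 to 4 lung libraries. The 5 widest Ishikawa regions had no lung peak; beside those at KLHL14 and MPPED2 they were chr3:166841028-166848971 in one of the chains above, chr13:114819408-114827240 in RASA3 and chr7:76954653-76962323 in GSAP. Each of these 5 was called wider in replicate 1 than in replicate 2.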

How the data were processed

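H3K27ac was measured by ChIP-seq, and the deposited files are 1 peak list for each sample, aligned with BWA to hg19 per the submitters' processing notes. The caller of the HCC95, BICR31 and lung lists, any control and any pooling are not named in the labels or files used here; the Ishikawa peak names begin with MACS. The authors deposited several values for each peak of the HCC95, BICR31, H358 and H2009 lists, without column names. From the column order these were read as a fold enrichment (a ratio) and −log10 p and q. For Ishikawa the authors deposited a score of 50 or more for each peak. Peaks on X, Y and alternate sequences, 3545 of 117653 (3.01%), were left out, and the 4 H2009 libraries that carry vectors were not used.

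Peaks were merged and counted with Python 3.11.15, numpy 2.4.6, pandas 2.3.3 and scipy 1.17.1; on simulated lists all 2000 planted regions returned to their classes. No gene annotation of hg19 was used. Gene positions were written from general knowledge and checked against RefSeq on GRCh38.p14: 132 of 133 genes were found by symbol, each on the same chromosome, 103 had a span within 5% of RefSeq's, and gene order was the same on all 20 chromosomes. Gene windows and starts are therefore approximate.

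The groups, gene lists and rules were chosen with earlier results of these data known. Named by rule were 10 lineage genes, the 10 genes of each lineage list with the most regions of their class, genes leaning to the opposite class, and the 5 widest regions and 5 longest chains of each class. WNT4, CDH6, COL17A1, SERPINB13, LAMA3, the alveolar markers, the genes at wide regions and chains, CD44, NR3C2 and AFF3 were chosen after their values were seen. So were HOXA9, HOXA10 and HOXA11. Some named genes and 1 wide region are not reported here. Alternatives were other merging, cover, peak width, list length, windows and leaving out each library.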

Additional observations from a re-analysis of the deposited data

Results flagged for a closer look

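HCC95 held 282 peaks on alternate or unplaced sequences of the build, which the comparisons left out, whereas BICR31 and both Ishikawa replicates held 0 there. The cause was not tested. The part of chromosome 6 from 28 to 34 Mb has alternate sequences in hg19. HCC95 had a peak in 61 of the 248 merged regions there. In 62 of the 248 the other 3 lists had a peak and HCC95 had none. That pattern was found in 2646 of all 56052 merged regions, or 4.72%. Of the 248, 4 regions (1.61%) were of the squamous class and 12 (4.84%) of the Ishikawa class. The shares of all merged regions were 8.91% and 8.16%. The squamous class requires an HCC95 peak, so its low share there cannot be told apart from missing HCC95 peaks. Why HCC95 lacked peaks there was not tested.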

How the results depend on the processing

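No paired analysis was possible because HCC95 and BICR31 are different lines with 1 library each and no counterpart among the Ishikawa replicates. The cause was not tested for any change given here. With peaks merged across gaps of up to 500 bp, squamous chains took in 11.02% and Ishikawa chains 10.89%, and with every peak at 1000 bp Ishikawa chains took in 11.8%. Where a list counted as present only if its peaks covered 50% of a region, the squamous class had 3084 regions (6.65% in chains, 55.3% with a lung peak) and the Ishikawa class 6956 (20.03%, 53.9%); near the squamous list the shares were 11.04% and 8.17%, with 8 and 2 starts. In lists of equal length by fold enrichment or score, the squamous class had 2872 regions (median 1057 bp, 2.75% in chains, 58.0% with a lung peak), the Ishikawa class had 15.002% in chains and 33.2% with a lung peak, near the squamous list the shares were 7.46% and 7.76% with 2 and 1 starts, and 0 Müllerian starts were squamous. In the higher-ranked 50%, the squamous class had 1755 regions (921 bp, 1.82%, 72.2%) and the Ishikawa class 2078 (2344 bp, 6.45%, 70.4%). The squamous list then stood at 4.79% and 15.6% with 2 and 8 starts. The Müllerian list stood at 9% squamous and 12% Ishikawa, beside 6.41% and 7.59% of all regions, with 3 Ishikawa and 1 squamous starts.

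The rankings by −log10 q and by width were chosen after seeing the data. With −log10 q the squamous class had 3104 regions (7.25% in chains, 59.8% with a lung peak), Ishikawa lung overlap was 32.6%, the squamous list stood at 16.1% with 1 Ishikawa start, and 1 Müllerian start was squamous. By width the squamous class had 2981 regions (1500 bp, 52.3% with a lung peak), the Ishikawa class had 15.4% in chains and 33.54% with a lung peak, and the Müllerian list 28.1% Ishikawa. With chain gaps of 5 kb the shares in chains were 2.16% squamous and 5.58% Ishikawa, and with 25 kb 20.6% and 22.8%.

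Leaving out 1 library at a time gave 5289 to 25494 squamous and 5526 to 7799 Ishikawa regions, median widths of 652 to 1219 and 652 to 1448 bp, chain shares of 10.7% to 35.7% and 14.7% to 30.0%, and lung overlap of 30.2% to 51.7% and 18.6% to 41.7%. Near the squamous list the squamous share ran from 21.4% to 62.7% and the Ishikawa share from 5.19% to 13.3%, with 16 to 19 squamous and 0 to 2 Ishikawa starts. Near the Müllerian list these were 8.80% to 43.1% and 24.4% to 38.2%, with 3 to 6 squamous and 6 to 6 Ishikawa starts. Without HCC95 the Müllerian list stood at 43.1% squamous and 24.4% Ishikawa, beside 49.6% and 10.7% of all merged regions. The depth behind the lists is unknown, so a missing peak does not show missing acetylation.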

Other observations

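On the X chromosome, which the comparisons left out, 1469 merged regions held 108 of the squamous class (7.35%) and 161 of the Ishikawa class (10.96%). GLIS3, the gene of a zinc finger factor, held 6 Ishikawa and 0 squamous regions of 25, and RAD51B, a DNA repair gene, held 8 and 2 of 56. Both overlapped 1 Mb tiles with 10 Ishikawa regions and were chosen after those counts were seen. On chromosome 20, the 1 Mb from 52000001 held 15 squamous and 4 Ishikawa regions among 58 and that from 49000001 held 14 and 5 among 53.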
